A study of Mus musculus with 8 samples.

Results

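The Tet genes encode dioxygenases that oxidise 5-methylcytosine in DNA, and their chromatin was followed here through H3K27ac, the acetylated lysine 27 of histone H3 that marks promoters and enhancers in use. A region belonged to Tet1, Tet2 or Tet3 where the authors' table names that gene as nearest and places the region's centre within 100 kb of the transcription start site (TSS). This gave 36 of 112137 regions: 15 for Tet1, 18 for Tet2 and 3 for Tet3. All 36 were above 0 in each group, and none carries the promoter label, which 5537 regions of the table have.

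H3K27ac was profiled by CUT&Tag, in which a transposase tethered to the antibody-bound mark tags nearby DNA for sequencing. The 8 libraries were from mouse embryonic stem cells in 4 groups of 2: formative DKO, formative WT, naive DKO and naive WT. DKO cells lack MLL3 (the product of Kmt2c) and MLL4 (the product of Kmt2d), enzymes that methylate histone H3 lysine 4 at enhancers. WT cells are the R1 line, a line for the DKO cells is not given in the sources used here, and any clonal origin of the DKO cells is therefore not known here. Formative cells were taken 63 hours after withdrawal of LIF2i. Replicates were grown and prepared separately, per the series design text. The H3K27ac and H3K4me1 columns hold 1 pooled value per group, written as log2(value + 1), with no SD or n. Only formative WT against naive WT has a test over replicates, from the authors' DiffBind columns. The depth of the libraries is unknown. Scaling between groups is not stated, so differences that involve DKO cells are described by size, with at least 2-fold (a log2 difference of 1) as the limit.

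The state labels were compared with marker genes. At 7 naive markers, such as Zfp42 and Esrrb, 62 of 102 regions (60.8%) fell and 4 (3.92%) rose in formative WT against naive WT, where 15.8% of all regions fell and 20.8% rose. At 6 formative markers, such as Fgf5 and Pou3f1, 26 of 46 regions (56.5%) rose and 2 (4.35%) fell, and both that fell belong to Otx2. In RNA from libraries outside this series, the authors' deposited table gives a median log2 fold over genes of -2.80 for the 7 naive markers and 5.24 for 3 formative markers with a value, formative WT against naive WT. The same folds were -2.09 and 5.19 in formative DKO against naive DKO, so the pooled marker RNA moved in the labelled direction in both genotypes.

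TET enzymes convert 5-methylcytosine to 5-hydroxymethylcytosine and on to formyl and carboxyl forms, which the glycosylase TDG can remove so that unmethylated cytosine is restored. They need iron and 2-oxoglutarate. TET1 and TET3 bind CG-rich DNA through a CXXC zinc finger, whereas TET2 has none, and the CXXC protein encoded by its neighbour Cxxc4 (IDAX) is known as its partner. In mouse embryonic stem cells Tet1 and Tet2 are the main expressed members, Tet2 is known to decline as naive cells leave their state, and Tet3 is best known from the oocyte and zygote and from differentiating cells. RNA of the 3 genes was not analysed here, because no row of theirs holds a value in the 18 RNA columns.

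All 3 genes lie on the minus strand, and coordinates are mm10. Tet1 spans chr10:62804570-62908996, Tet2 chr3:133463679-133545139 and Tet3 chr6:83362373-83459084 in GENCODE. The table's distances count from the starts of Tet1-207 (position 62887324), Tet2-201 (133544390) and Tet3-203 (83456392), and a positive distance is downstream, inside the gene. Regions are numbered within each gene in order of coordinate, so for each gene a low number is farthest downstream of the start.

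Windows before Tet2 and Tet1 starts and a window inside Tet3 are shown first, because their CG content and H3K27ac are both described below. Each sequence is read from the genome of the files' build (GRCm38.p6), 5′ to 3′, with CG dinucleotides in capitals. The Tet2 window is the 250 bases before the RefSeq start and lies in Tet2 region 16. The Tet1 windows are the 250 bases before the starts of Tet1-210, in region 14, and Tet1-206, in region 15. The Tet3 window is the central 300 bases of region 2, which holds no annotated start, and is read from the + strand.
Tet2 promoter, chr3:133544391-133544640 (- strand): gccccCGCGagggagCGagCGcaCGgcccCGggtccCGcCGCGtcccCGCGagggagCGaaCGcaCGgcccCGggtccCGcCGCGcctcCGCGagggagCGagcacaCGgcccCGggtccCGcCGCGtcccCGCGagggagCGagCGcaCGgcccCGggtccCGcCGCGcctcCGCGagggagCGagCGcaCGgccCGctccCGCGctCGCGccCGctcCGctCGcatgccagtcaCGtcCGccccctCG
Tet1-210 start, chr10:62887513-62887762 (- strand): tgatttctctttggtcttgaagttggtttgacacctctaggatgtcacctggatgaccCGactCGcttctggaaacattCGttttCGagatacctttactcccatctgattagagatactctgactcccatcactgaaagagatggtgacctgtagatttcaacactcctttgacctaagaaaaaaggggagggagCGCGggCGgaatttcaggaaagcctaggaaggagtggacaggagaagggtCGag
Tet1-206 start, chr10:62899119-62899368 (- strand): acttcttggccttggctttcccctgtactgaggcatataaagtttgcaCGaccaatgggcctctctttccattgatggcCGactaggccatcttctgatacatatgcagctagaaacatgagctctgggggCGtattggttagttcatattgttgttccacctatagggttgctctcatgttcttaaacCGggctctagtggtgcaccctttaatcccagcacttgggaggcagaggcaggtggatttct
Tet3 region 2, chr6:83455769-83456068 (+ strand): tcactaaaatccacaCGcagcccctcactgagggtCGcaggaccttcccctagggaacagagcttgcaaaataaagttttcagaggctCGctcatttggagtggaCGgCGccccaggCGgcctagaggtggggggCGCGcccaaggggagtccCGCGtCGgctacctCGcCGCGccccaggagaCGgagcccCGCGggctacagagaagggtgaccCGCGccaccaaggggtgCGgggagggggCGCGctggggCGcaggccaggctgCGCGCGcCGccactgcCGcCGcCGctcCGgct
The Tet2 promoter window held 51 CG dinucleotides and was 83.6% G or C. Of 27025 RefSeq promoters cut to the same upstream length, 0.0703% had as many, and the median had 6. Within it the letters GGGAGCGA occurred 5 times on the strand shown, as part of a longer unit repeated in tandem. The Tet1-210 window held 8 CG, a number that 43.4% of promoters reached, and the Tet1-206 window held 4, which 61.9% reached. The central bases of Tet3 region 2 held 31 CG. For comparison on the same footing as Tet2, the 250 bases before the RefSeq start of Tet1, also in region 14, held 15 CG and were 62.8% G or C, and 27.5% of promoters had as many. The RefSeq window of Tet3, which lies in none of its regions, held 17 CG, a number that 23.6% of promoters reached. By these RefSeq windows all 3 genes were above the median promoter in CG, and Tet2 had the most.

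Over whole regions, CG density did not divide those holding a start from the rest. Tet2 region 16 had 41.1 CG per kb and Tet1 region 14 had 28.7, but Tet1 region 15, with the Tet1-206 and Tet1-209 starts, had 8.45, and Tet2 region 5, with the start of Tet2-210, had 9.90. Tet3 region 2, which holds no annotated start, had 90.4. Medians were 11.0 per kb for Tet1, 8.91 for Tet2 and 13.5 for Tet3, against 11.9 for all regions. Tet2 region 4, an intronic region far downstream, held no CG at all, whereas Tet2 region 18, upstream of the gene and outside any annotated gene body, held 37.7 per kb.

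The 9 matches to the octamer ATGCAAAT in Tet2 regions are shown because this is the element bound by POU factors, such as the pluripotency factor OCT4. The motif was chosen after its counts were seen. Both strands were searched; each line gives the strand it is read from, 16 bases on either side and the octamer in capitals.
Site 1, Tet2 region 16, chr3:133542580-133542619 (+ strand): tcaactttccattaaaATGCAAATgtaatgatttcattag
Site 2, Tet2 region 13, chr3:133528505-133528544 (+ strand): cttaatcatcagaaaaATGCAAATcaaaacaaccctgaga
Site 3, Tet2 region 13, chr3:133524141-133524180 (+ strand): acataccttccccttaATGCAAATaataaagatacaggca
Site 4, Tet2 region 13, chr3:133517878-133517917 (- strand): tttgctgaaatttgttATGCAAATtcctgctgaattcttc
Site 5, Tet2 region 12, chr3:133513856-133513895 (+ strand): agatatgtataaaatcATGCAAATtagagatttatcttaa
Site 6, Tet2 region 12, chr3:133513652-133513691 (+ strand): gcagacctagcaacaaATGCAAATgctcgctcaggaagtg
Site 7, Tet2 region 5, chr3:133482692-133482731 (+ strand): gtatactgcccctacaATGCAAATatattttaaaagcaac
Site 8, Tet2 region 5, chr3:133481009-133481048 (+ strand): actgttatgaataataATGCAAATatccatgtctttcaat
Site 9, Tet2 region 4, chr3:133475711-133475750 (+ strand): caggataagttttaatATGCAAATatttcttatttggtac
Tet2 regions held 0.164 octamers per kb, against 0.0876 per kb in Tet1 regions and 0.0488 per kb in all regions of the table. Of Tet2 regions, 1 of 18 had an octamer in its central 300 bases, as did 1.46% of all regions, and 1.61% of RefSeq promoter windows held it. Sites 2 and 7 lie in repeat-masked sequence. Region 13, the broadest at 18.5 kb, held 3 of the 9, and region 12 held 2. Octamer-bearing regions 16, 13, 12 and 5 lost H3K27ac in formative WT, and region 4 had no call. Since 15 of all 18 Tet2 regions lost it, no link between octamer and loss is drawn.

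Other motifs were counted in the same way, on both strands. The OTX letters GGATTA came to 0.858 per kb in Tet1 regions, 0.436 in Tet2 regions and 0.440 in all regions, and 6.38% of promoters held them. The estrogen-related receptor letters CAAGGTCA came to 0.140 per kb in Tet1 regions and 0.0364 in Tet2 regions, against 0.0826 in all regions, with 1.31% of promoters holding them. The Kruppel-like factor letters GGGTGTGG came to 0.105 and 0.0364 per kb in Tet1 and Tet2 regions, against 0.116 in all regions, and 3.19% of promoters held them. The STAT letters TTCNNNGAA came to 0.368 and 0.254 per kb, against 0.288 in all regions, and 7.18% of promoters held them. Tet3 regions had 1 match each to the OTX and STAT letters and none to the other 3 motifs. These counts describe letters in the regions and say nothing of binding.

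Tet2 lost H3K27ac at 14 of the 15 regions over its gene body in formative WT cells. Tet1 lost it most in regions 14 and 15, which hold the starts of Tet1-207, Tet1-210, Tet1-206 and Tet1-209. No Tet3 region passed the test. In the authors' deposited table Tet2 had 15 of 18 regions that fell at a DiffBind adjusted p under 0.05 and none that rose. For Tet1, 6 of 15 regions fell and none rose, and no other Tet1 or Tet2 region had an unadjusted p under 0.05. For Tet3 none of the 3 was called, although 2 had an unadjusted p under 0.05, both with positive folds. In bulk cells, fewer cells with the mark and less of it per cell cannot be told apart. Of all regions tested, 15.8% fell and 20.8% rose. The median DiffBind log2 fold was -2.74 for Tet2, -0.82 for Tet1 and 1.67 for Tet3, against 0.56 for all regions.

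**Figure D1:**
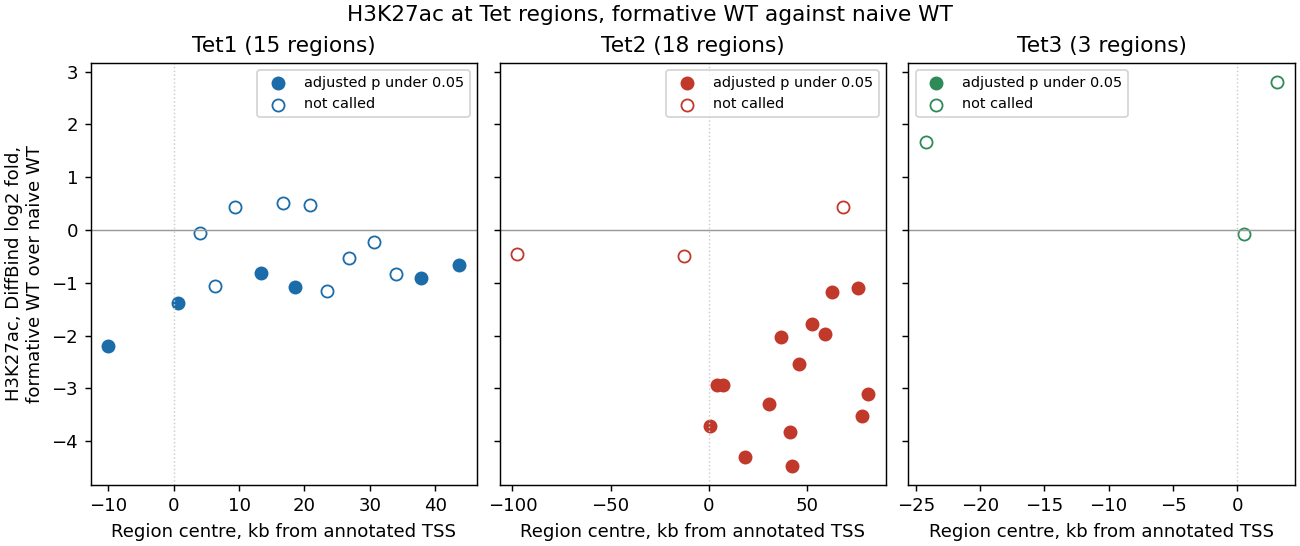
DiffBind log2 fold of H3K27ac, formative WT over naive WT (y axis), against distance of the region's centre from the annotated TSS in kb (x axis), 1 panel per gene. Each point is a region, filled where the adjusted p is under 0.05. Tet2 regions inside the gene sit between -4.46 and 0.44, those of Tet1 between -2.20 and 0.51.

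Tet2 region 13 is the broadest of the 36, an intronic stretch of 18.5 kb at chr3:133516634-133535116. Its pooled log2 value was 2.71 in formative WT and 6.90 in naive WT. The authors' deposited table gives a log2 fold of -4.29 for it, with a DiffBind adjusted p of 9.93e-130. It held 27.3% of the DiffBind signal summed over Tet2 regions in formative WT, against 60.2% in naive WT. The summed signal of the 18 regions, which cover 55.0 kb, was 29.9 normalised reads per kb in formative WT and 265.2 in naive WT. That is a log2 difference of -3.15 for the locus.

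The Tet2 start behaved like the gene body. Region 16, at chr3:133541673-133545439, contains the starts of 5 Tet2 transcripts, Tet2-201 and the CG-dense window shown above. Its pooled log2 value was 4.44 in formative WT and 8.09 in naive WT, and the authors' deposited table gives a log2 fold of -3.71 (DiffBind adjusted p = 1.17e-27). Next to it, regions 15 and 14 had log2 folds of -2.94 and -2.93 in the authors' deposited table (DiffBind adjusted p = 3.96e-17 and 5.74e-18). The deepest fold in the window was at region 9, 42.6 kb inside the gene, where the pooled log2 value was 4.76 in formative WT and 8.96 in naive WT. The authors' deposited table lists it at -4.46 (DiffBind adjusted p = 2.74e-09). Its DiffBind log2 concentration in formative WT was only 2.77, so the size of this fold rests on few reads. Region 12 followed the same course, at -3.29 in the authors' deposited table (DiffBind adjusted p = 5.51e-26).

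Towards the 3′ end of Tet2 the falls were uneven. Region 1, just past the transcript end, and region 2, labelled 3′UTR, had log2 folds of -3.10 and -3.52 in the authors' deposited table (DiffBind adjusted p = 2.44e-05 and 0.00106). Their DiffBind log2 concentrations in formative WT were 3.69 and 2.60, so the sizes of these folds also rest on few reads. Region 3, labelled exon, had -1.10 in the authors' deposited table (DiffBind adjusted p = 0.0390), the smallest fall among the Tet2 regions called. Region 5, which holds 2 octamers, was at -1.17 in the authors' deposited table (DiffBind adjusted p = 0.00313). Region 7 had a pooled log2 value of 6.24 in formative WT and 8.06 in naive WT.

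The 3 Tet2 regions without a call were region 4 and the pair upstream of the gene. In the authors' deposited table region 4 had a log2 fold of 0.44 (DiffBind adjusted p = 0.717), region 17, 12.4 kb upstream, had -0.49 (0.875), and region 18, 97.6 kb upstream, had -0.45 (0.354). Region 18 is the member nearest to the limit of the window. Just outside the limit, a region at chr3:133437964-133438706, 106.1 kb downstream of the start, had a log2 fold of -6.48 in the authors' deposited table (DiffBind adjusted p = 1.62e-05). Its DiffBind log2 concentration in formative WT was only -0.4, so the size of this fold rests on very few reads. Farther out, a region 195 kb upstream rose by 6.04 in the authors' deposited table (DiffBind adjusted p = 2.58e-04), with naive WT listed at 0 in the pooled column. Both are given for their position and enter no count.

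At Tet1 the loss was concentrated at the 5′ end. Region 15, 16.3 kb at chr10:62889128-62905454, is labelled intergenic but contains the starts of Tet1-206 and Tet1-209 in GENCODE. Its pooled log2 value was 4.68 in formative WT and 6.81 in naive WT, and the authors' deposited table gives a log2 fold of -2.20 (DiffBind adjusted p = 1.64e-28). Region 14, at chr10:62884213-62889120, contains the starts of Tet1-207 and Tet1-210. It had pooled log2 values of 7.00 in formative WT and 8.40 in naive WT and a log2 fold of -1.39 in the authors' deposited table (DiffBind adjusted p = 8.05e-07). The share of region 15 in the summed DiffBind signal of Tet1 was 24.2% in formative WT, against 49.2% in naive WT.

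Inside Tet1 the folds were mixed in size and sign. Regions 8, 2, 10 and 1 fell, with log2 folds of -1.07, -0.90, -0.82 and -0.66 in the authors' deposited table (DiffBind adjusted p = 0.0100, 2.38e-04, 0.0108 and 0.0176). Regions 9, 7 and 11 had folds of 0.51, 0.47 and 0.44 in the authors' deposited table, with DiffBind adjusted p of 0.242, 0.300 and 0.325. Region 7 holds the start of Tet1-202, so not every annotated Tet1 start lay in a region that fell. The other 6 regions without a call all had negative folds. Regions 6 and 12 were past 2-fold, at -1.16 and -1.06 in the authors' deposited table, with DiffBind adjusted p of 0.183 and 0.214. Regions 3, 5, 4 and 13 were at -0.84, -0.53, -0.22 and -0.05 in the authors' deposited table, with DiffBind adjusted p of 0.306, 0.135, 0.599 and 0.944. The pooled Tet1 median was -0.86 as deposited and -1.60 to -0.68 under the 4 scalings of the pooled columns. It was -0.06 under quantile normalization with region width undone, an alternative added after the data were seen. Summed over 57.1 kb, Tet1 signal was 100.7 normalised reads per kb in formative WT and 227.2 in naive WT, a log2 difference of -1.17. The summed signal per kb was thus higher at Tet1 than at Tet2 in formative WT and slightly lower in naive WT.

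For Tet3 the pooled values of 2 of the 3 regions were higher in formative cells. Region 1, intronic, at chr6:83452819-83453722, had a pooled log2 value of 8.04 in formative WT and 5.22 in naive WT. Its log2 fold was 2.80 in the authors' deposited table (DiffBind adjusted p = 0.105). Region 2, the CG-dense region 0.5 kb from the start of Tet3-203, had 9.88 in formative WT and 9.80 in naive WT, and a fold of -0.07 in the authors' deposited table (DiffBind adjusted p = 0.982). Region 3, at chr6:83479660-83481436, lies inside Dguok, which encodes deoxyguanosine kinase, and 24.2 kb upstream of the Tet3 start. It had 7.25 in formative WT and 5.72 in naive WT, with a fold of 1.67 in the authors' deposited table (DiffBind adjusted p = 0.0956). None of these 3 differences passed the threshold, and the 3 regions cover only 3.1 kb. All 3 also had a signal below the median of all regions, so a filter on low signal left 0 Tet3 regions in any comparison.

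Assignment to the nearest start leaves part of the Tet1 and Tet3 gene bodies with other genes. Of 23 regions that overlap the body of Tet1, 8 are assigned to Ccar1, its downstream neighbour, and 1 of these fell, with a log2 fold of -0.96 in the authors' deposited table (DiffBind adjusted p = 0.0367). Another, at chr10:62813916-62815685, holds the starts of Tet1-203, Tet1-204 and Tet1-205. Its log2 fold was 0.54 in the authors' deposited table (DiffBind adjusted p = 0.347). All 15 regions over the Tet2 body are assigned to Tet2, and 14 of them fell. Of 6 regions over the Tet3 body, 4 are assigned to Bola3 or Mir6374. One of these, at chr6:83364137-83364905 labelled 3′UTR, rose by 3.77 in the authors' deposited table (DiffBind adjusted p = 0.00807). The start of the Tet3-202 transcript had no region within 11144 bases.

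DKO cells went through the same kind of change at Tet2. In formative DKO against naive DKO, 16 of 18 Tet2 regions were at least 2-fold lower and none was 2-fold higher, against 18.1% lower and 17.1% higher among all regions. The median log2 difference was -1.87 for Tet2, -0.32 for Tet1 and 2.03 for Tet3, against -0.06 for all regions. These pooled differences have no replicate check. Of the 15 Tet2 regions that fell in WT, 14 were at least 2-fold lower in DKO, with a median of -2.00. Among all regions that fell in WT, 32.0% were 2-fold lower in DKO and the median was -0.60. At Tet1, 3 of 15 regions were 2-fold lower and none higher, and at Tet3 all 3 were 2-fold higher. Tet1 region 8, which fell in WT, was at 7.59 in formative DKO and 6.86 in naive DKO, a log2 difference of 0.73. Tet1 region 1 was at 6.41 in formative DKO and 7.87 in naive DKO, a difference of -1.46. Tet3 region 1 was at 7.86 in formative DKO and 5.57 in naive DKO, a difference of 2.29.

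**Figure D2:**
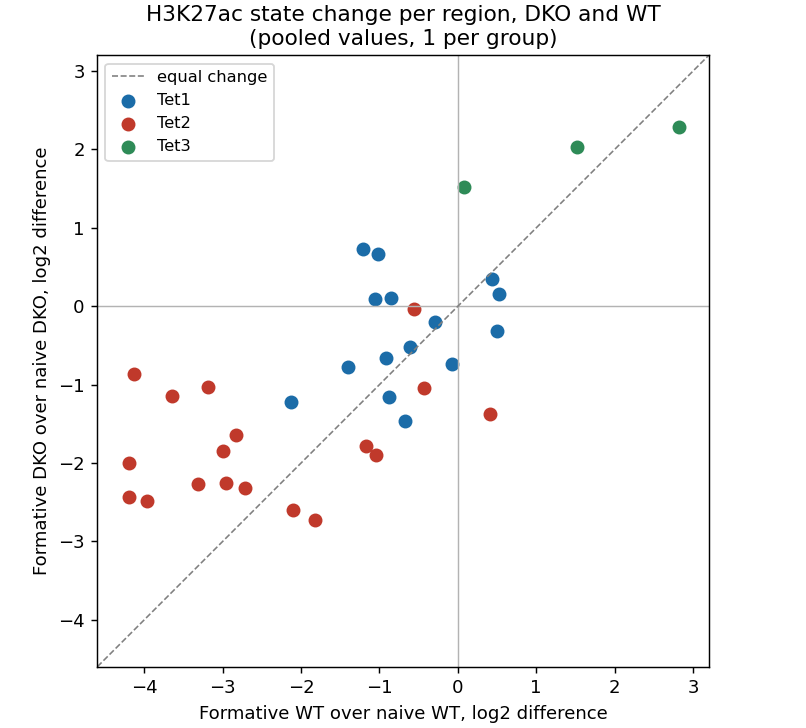
Pooled H3K27ac log2 difference, formative DKO over naive DKO (y axis) against formative WT over naive WT (x axis), 1 point per region. The dashed line marks equal change. Tet2 points lie below 0 on the y axis, from -2.73 to -0.04, and the 3 Tet3 points lie above 0 on both axes.

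The direction of the pooled change was shared by WT and DKO at 17 of 18 Tet2 regions, 10 of 15 Tet1 regions and all 3 Tet3 regions. The exception at Tet2 was region 4, at -1.38 in DKO and 0.41 in WT. Across the 36 regions Pearson's r between the DKO and WT changes was 0.73, but it was 0.31 within Tet2 and 0.26 within Tet1. It is a description over regions that share libraries, with 4 separate groups in the 2 changes.

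The size of the change differed between genotypes at many Tet2 regions. Region 13 was at 3.85 in formative DKO and 6.28 in naive DKO, a log2 difference of -2.43, against 2.71 in formative WT and 6.90 in naive WT, a difference of -4.19. Region 16 at the start was at 6.60 in formative DKO and 7.75 in naive DKO, a difference of -1.15, against -3.65 in WT. Region 2 was at 8.04 in formative DKO and 8.91 in naive DKO, a difference of -0.87, against -4.14 in WT. Region 7 went the other way, at 5.71 in formative DKO and 8.44 in naive DKO, a difference of -2.73, against -1.82 in WT. The change in DKO minus that in WT had a median of 0.87 over Tet2 regions, with 9 of 18 at 1 or more, against a median of -0.39 over all regions. Over the 15 Tet2 regions that fell in WT this median was 1.16, and over all regions that fell in WT it was 1.41. A smaller pooled fall in DKO was thus not particular to Tet2 among regions chosen for falling in WT.

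**Figure D3:**
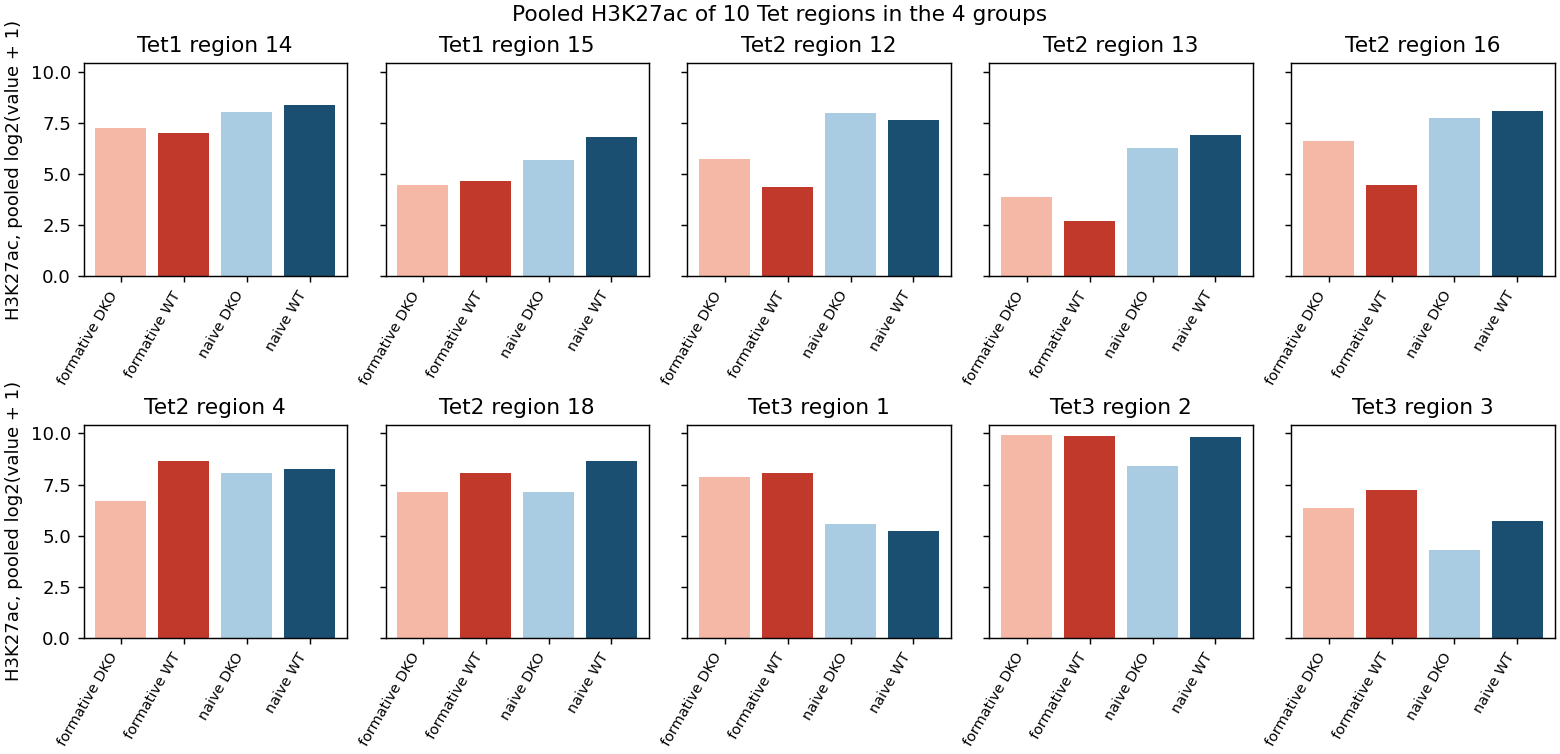
Pooled H3K27ac, log2(value + 1), of 10 regions, with bars from left to right for formative DKO, formative WT, naive DKO and naive WT (1 pooled value per group, no error bar). Levels are comparable within a panel but not between panels, because the value falls with region width. At Tet2 region 13 the bars stand at 3.85, 2.71, 6.28 and 6.90.

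In formative cells, as deposited, more Tet2 regions had higher than lower pooled H3K27ac in DKO against WT. Of 18 Tet2 regions, 8 lay 2-fold or more above WT and 3 lay 2-fold or more below it, whereas among all regions 10.8% were higher and 41.0% lower. The Tet2 median was 0.69 and that of all regions -0.68. The sign of the Tet2 median held under the 4 alternative scalings, which gave 0.06 to 2.80, but its size depended on them. So did the counts: centred on promoter regions, 5 Tet2 regions were 2-fold higher and 5 were 2-fold lower, so the excess of higher regions was lost, while the other 3 scalings gave 10 to 13 higher and 1 lower. The largest positive difference was at region 2, with 8.04 in formative DKO and 4.87 in formative WT, a log2 difference of 3.16. This difference ran from 2.53 to 7.06 over the 4 scalings. The DiffBind log2 concentration of region 2 in formative WT was only 2.60, so its size rests on few reads. Region 16 at the start differed by 2.16, region 10 by 2.10 and region 13 by 1.14. The largest negative one was at region 4, with 6.69 in formative DKO and 8.65 in formative WT, a difference of -1.96. These differences use the same formative WT value as the WT state change. Over all regions that fell in WT the median of formative DKO against formative WT was 0.62, and over the 15 Tet2 ones it was 1.14. Of 17406 such regions, 6572 were 2-fold higher and 2347 lower, beside 8 and 1 of the 15 Tet2 ones. More higher than lower regions was thus not particular to Tet2 among regions that fell in WT.

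As deposited, Tet1 and Tet3 differed little between formative DKO and formative WT. The Tet1 median was 0.01 and that of Tet3 -0.18, with 1 Tet1 region 2-fold lower and no other region of either gene past 2-fold. Both medians changed sign between scalings, with ranges of -0.62 to 1.26 for Tet1 and -0.82 to 0.58 for Tet3, so no direction is given. Tet1 region 9 was at 7.66 in formative DKO and 8.81 in formative WT, a difference of -1.14. Tet1 region 6 was at 8.83 in formative DKO and 8.09 in formative WT, a difference of 0.74. The broad Tet1 region 15 was at 4.45 in formative DKO and 4.68 in formative WT. At Tet3, regions 1, 2 and 3 were at 7.86, 9.93 and 6.34 in formative DKO and at 8.04, 9.88 and 7.25 in formative WT.

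In naive cells the Tet2 median of pooled H3K27ac differed little between DKO and WT, as deposited. The median log2 difference was -0.16 for Tet2, with 1 of 18 regions 2-fold lower and 1 higher, against 26.7% lower and 19.2% higher among all regions, whose median was -0.11. For Tet1 the median was -0.20, with 3 of 15 regions lower and 1 higher. The Tet1 and Tet2 medians changed sign between scalings, with ranges of -0.78 to 0.09 for Tet1 and -0.73 to 0.13 for Tet2. Centred on promoter regions, 6 of 18 Tet2 regions were 2-fold lower and 0 higher. Over all regions that fell in WT the median as deposited was -0.91, with 8365 of 17627 2-fold lower and 533 higher. Over the 15 Tet2 ones it was -0.10, with 0 lower and 1 higher. Both use the same naive WT value as the WT state change. Tet2 region 13, the broadest, was at 6.28 in naive DKO and 6.90 in naive WT, a difference of -0.62. Tet3 had 2 of 3 regions lower and a median of -1.39, which stayed below 0 under each of the 4 scalings. Under quantile normalization with region width undone the Tet3 median was -0.96, with 0 of 3 regions 2-fold lower.

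Single regions departed from these medians. At Tet1 region 8 the pooled value was 6.86 in naive DKO and 8.60 in naive WT, a log2 difference of -1.74. At Tet1 region 15, with the Tet1-206 start, it was 5.67 in naive DKO and 6.81 in naive WT, a difference of -1.14. Tet1 region 1, the farthest downstream, was higher in naive DKO, at 7.87 against 6.73 in naive WT, a difference of 1.14. At Tet2 the extremes were region 18 upstream, at 7.15 in naive DKO and 8.63 in naive WT, a difference of -1.48, and region 3 near the 3′ end, at 8.05 in naive DKO and 6.95 in naive WT, a difference of 1.09. Tet3 region 2, the CG-dense one, was at 8.42 in naive DKO and 9.80 in naive WT. Tet3 region 3 was at 4.31 in naive DKO and 5.72 in naive WT, a difference of -1.42.

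**Figure D4:**
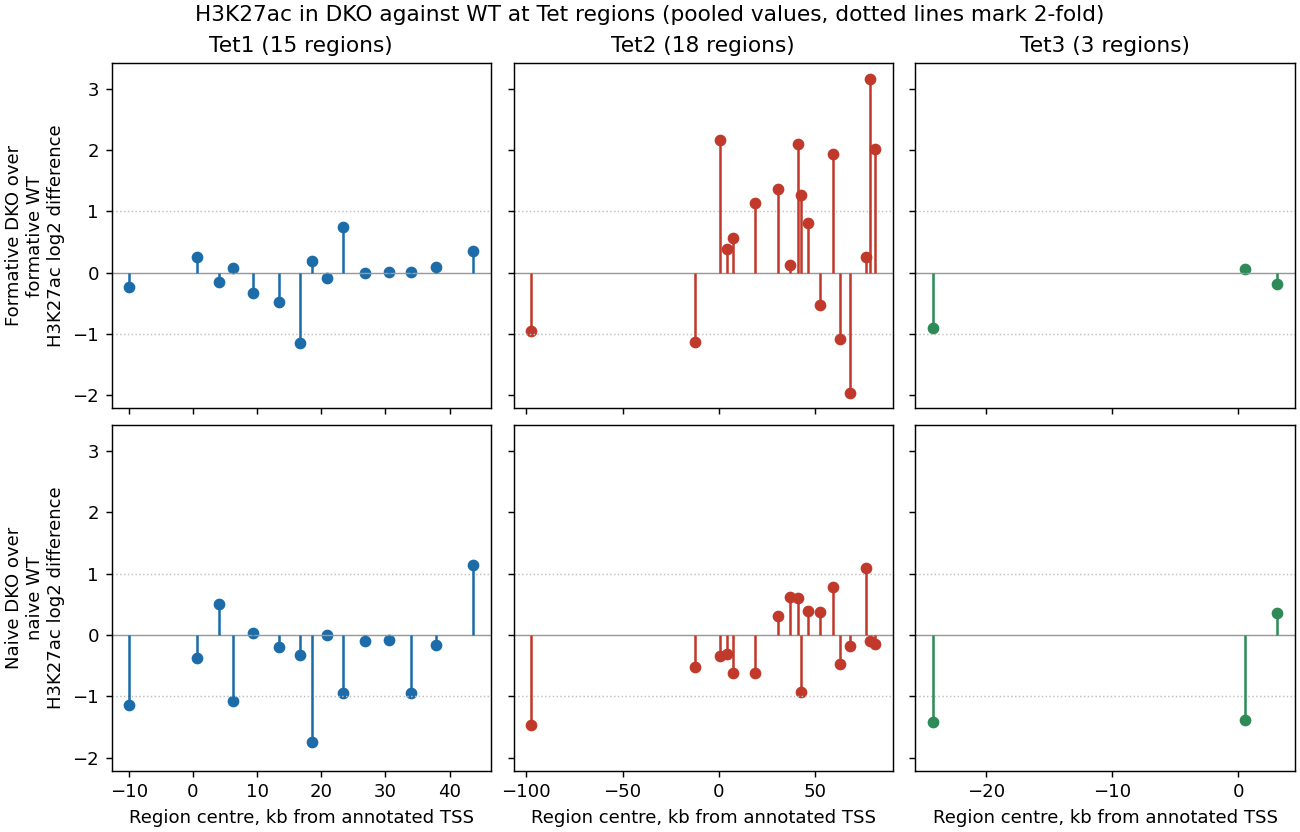
Pooled H3K27ac log2 difference, formative DKO over formative WT (upper row) and naive DKO over naive WT (lower row), against distance from the annotated TSS in kb, 1 stem per region. Dotted lines mark 2-fold. In formative cells 8 Tet2 stems pass the upper line and 3 the lower one, and in naive cells 1 passes each.

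H3K4me1, the mark that MLL3 and MLL4 deposit at enhancers, comes from libraries outside this series and is given as the authors' pooled values. At Tet2 it was lower in the formative state in WT, though by less than H3K27ac. In formative WT against naive WT, 8 of 18 Tet2 regions were at least 2-fold lower and none higher, against 15.5% lower and 5.87% higher among all regions. The median log2 difference of H3K4me1 was -0.81 for Tet2, -0.10 for Tet1 and 0.17 for Tet3, against -0.15 for all regions. For Tet2 it stayed below 0 under the 4 scalings, from -0.98 to -0.47, whereas for Tet1 it ran from -0.27 to 0.20. Of Tet1 regions none passed 2-fold, and of Tet3 regions 1 was lower, region 3 in Dguok, at 2.85 in formative WT and 4.34 in naive WT.

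At the Tet2 start the marks had differences of opposite sign. Region 16 had H3K4me1 of 5.06 in formative WT and 4.52 in naive WT, a log2 difference of 0.54, while its H3K27ac differed by -3.65. Region 13 had H3K4me1 of 2.78 in formative WT and 3.28 in naive WT, a difference of -0.50, beside -4.19 for H3K27ac. Region 3 near the 3′ end showed the reverse proportion, at -2.08 for H3K4me1 and -1.05 for H3K27ac. Across the 36 regions Pearson's r between the H3K4me1 and H3K27ac differences was 0.42, and it was 0.26 within Tet2 and 0.08 within Tet1. These correlations are descriptions across regions that share libraries.

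In DKO cells, Tet2 again had regions with less H3K4me1 in the formative state. In formative DKO against naive DKO, 3 of 18 Tet2 regions were 2-fold lower and none higher, with a log2 median of -0.30, against 2.91% lower and 2.72% higher among all regions and a median of 0.04. Region 10 had the largest difference, with 6.12 in formative DKO and 7.78 in naive DKO, a log2 difference of -1.66. No Tet1 region passed 2-fold, and 1 Tet3 region did, region 1, higher by 1.23 at 8.22 in formative DKO and 6.99 in naive DKO.

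In naive DKO against naive WT the Tet2 median of pooled H3K4me1 was lower, but the share of Tet2 regions 2-fold lower was near that of all regions. The median log2 difference of H3K4me1 was -0.78 for Tet2, with 3 of 18 regions 2-fold lower and none higher, against 18.7% lower and 5.01% higher among all regions and a median of -0.30. The Tet2 value stayed below 0 under the 4 scalings, from -1.38 to -0.43. Region 6 was at 5.68 in naive DKO and 7.37 in naive WT. Region 13 was at 2.46 in naive DKO and 3.28 in naive WT. The start again differed, with region 16 at 5.14 in naive DKO and 4.52 in naive WT. For Tet1 the median was -0.08 and for Tet3 0.40, with no region past 2-fold and signs that depended on the scaling.

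In formative cells the same comparison of H3K4me1 gave a Tet2 median of -0.14, with 2 of 18 regions 2-fold lower and 1 higher, against 16.0% lower and 10.5% higher among all regions and a median of -0.02. Tet2 region 2, where H3K27ac was 3.16 higher on the log2 scale in formative DKO, had H3K4me1 of 6.05 in formative DKO and 4.83 in formative WT. For Tet1 the median was 0.31, with 1 of 15 regions 2-fold higher, and it ran from -0.27 to 0.44 over the 4 scalings. Tet3 had a median of 1.34 and 2 of 3 regions 2-fold higher. Tet3 region 3 was at 4.79 in formative DKO and 2.85 in formative WT, and region 1 was at 8.22 in formative DKO and 6.89 in formative WT. The Tet3 median ranged from 0.75 to 1.46 over the 4 scalings. The H3K27ac differences of the same regions, formative DKO against formative WT, were -0.91 and -0.18 as deposited.

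**Figure D5:**
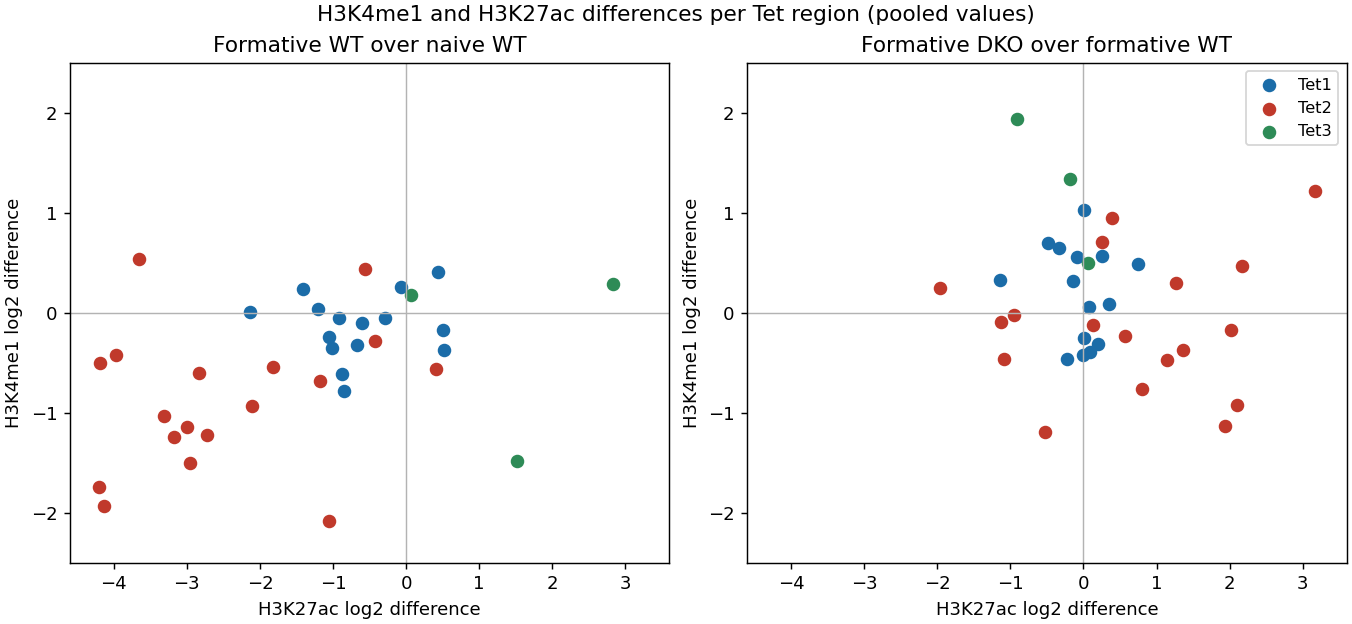
Log2 difference of H3K4me1 (y axis) against that of H3K27ac (x axis), 1 point per region coloured by gene, for formative WT over naive WT (left) and formative DKO over formative WT (right), from pooled values. On the left Tet2 points spread to -4.20 on the H3K27ac axis and to -2.08 on the H3K4me1 axis.

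The genes whose pattern over the 4 groups was most like each Tet gene were taken by Euclidean distance between centred gene medians of pooled H3K27ac, among 10646 genes with at least 3 regions. For Tet2 they were Ntn1, Tnfsfm13, Rnf146, Ctnnb1 and the naive marker Tbx3, at distances of 0.165 to 0.330. For Tet1 they were Bub1b, Mtfr1, Elavl1, Six4 and Ucma, at 0.0808 to 0.104. For Tet3 they were Dusp5, Cgnl1, Myo7b, Marveld3 and Synj2, at 0.299 to 0.368. In formative WT against naive WT, the Tet2 median of -2.90 compares with 0.54 over 18432 genes, of which 13.9% were 2-fold lower.

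Genes that act with the TET enzymes were described from fixed lists. The list of 5-methylcytosine oxidation and repair holds 13 genes, of which 12 had a region. Of their 57 regions 9 (15.8%) fell and 6 (10.5%) rose in formative WT against naive WT, so the share that fell was that of all regions, 15.8%, beside 20.8% of all regions that rose. Regions only fell at 4 genes, only rose at 3, did both at 2 and had no call at 3. Tdg, whose glycosylase removes the oxidised bases, had no region. Idh2 and Idh1, whose enzymes make 2-oxoglutarate, had 3 of 7 and 1 of 4 regions that fell, with pooled medians of -1.34 and -0.20. Their RNA log2 folds were -1.29 and -1.60, formative WT against naive WT, in the authors' deposited table. In formative DKO against naive DKO these folds were -0.72 and -0.13 there. Formative DKO against formative WT gave 0.57 for Idh2 and 1.02 for Idh1 in the authors' deposited table. RNA of Neil3 and Smug1, which encode DNA glycosylases, had folds of 1.49 and -1.05 in the authors' deposited table.

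Genes that add or maintain methylation had shares near the background. Of 72 regions at 6 genes, 10 (13.9%) fell and 13 (18.1%) rose, against 15.8% and 20.8% of all regions. The de novo methyltransferase genes Dnmt3a and Dnmt3b held 9 and 3 of those that rose, with pooled medians of 1.26 and 1.78, though 3 Dnmt3a regions fell. RNA of Dnmt3a had a log2 fold of 2.64 in the authors' deposited table. Dnmt3l, which encodes a cofactor of these enzymes, had 4 of 8 regions that fell and a median of -0.93. In the authors' deposited table the Dnmt3l RNA log2 fold was -3.53, naive DKO against naive WT, and -2.01, formative DKO against formative WT. In formative DKO against formative WT the pooled H3K27ac median was -1.33 for Dnmt3a, -2.20 for Dnmt3b and -1.44 for Dnmt3l. It was 0.08 for Dnmt1, 0.10 for Uhrf1 and 0.09 for Hells, beside 0.69 for Tet2 and -0.68 for all regions. Scaling moved the median of all regions by -0.63 to 0.85 in this comparison.

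The list of TET partners and CXXC genes had 12 genes with 112 regions, of which 27 (24.1%) fell and 19 (17.0%) rose, against 15.8% and 20.8% of all regions. Ogt, whose product binds TET proteins and attaches sugar to chromatin proteins, had 3 of 4 regions that fell and a pooled median of -2.33. Nanog and Dppa3, naive-state genes whose products act with or against TET enzymes, had 5 of 8 and 2 of 3 that fell, with medians of -1.33 and -2.64. Both regions of Cxxc4, the neighbour of Tet2, rose. The authors' deposited table gives RNA log2 folds of 4.54 for Cxxc4, 2.21 for Lin28a, -1.80 for Nanog and -2.67 for Prdm14, but only -0.19 for Ogt and -0.18 for Dppa3, formative WT against naive WT. Prdm14, which encodes a factor that recruits TET enzymes, had 7 of 17 regions that fell and 2 that rose. In the authors' deposited table the folds of Cxxc4 and Prdm14 in formative DKO against naive DKO were 3.53 and -2.35.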

How the data were processed

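The authors deposited 1 table of 112137 regions and 47 columns. The submitters' processing notes name mm10 as the build and list deepTools, DiffBind, SEACR, Bowtie2 and Trim Galore, without a version, role or order for any of them. The authors' H3K27ac and H3K4me1 columns are log2(value + 1) values, 1 pooled value per group, with scaling not stated. The deposited DiffBind columns, per the file headers, hold log2 concentrations, a log2 fold, a p-value and an adjusted p-value for formative WT against naive WT. Of the columns, 26 belong to no sample of this series (H3K4me1 and RNA) and were used only as the authors' values.

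In a regression on DiffBind concentration and width, the log2 level fell with region width at an exponent of -2.00 in formative WT and -1.98 in naive WT, so levels were compared only within a region; between regions and genes, DiffBind concentration per kb was used. Regions at 0 in a group were left out of that group's differences. Calls in WT used the authors' adjusted p under 0.05. The planned tests over libraries could not be run on pooled columns, so other comparisons were described by size, with no p. Depth per library is unknown, so no counting interval is given. By rule, regions described were, per gene, that of smallest adjusted p and those of largest positive and negative difference in each pooled comparison. Not every value of each is given, and further regions were chosen after their values were seen. The members and gene lists were chosen with earlier results of these data known. Transcript starts are from GENCODE M21 on GRCm38.p6 and promoter windows from RefSeq on the same build. Scaling code was tested on simulated data. Python 3.11.15, pandas 2.3.3, NumPy 2.4.6 and matplotlib 3.10.9 were used. Alternatives were 4 scalings, other windows, folds and thresholds, and a filter on low signal; a width-corrected quantile normalization, gene-body membership and H3K4me1 scalings were added after the data were seen.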

Additional observations from a re-analysis of the deposited data

How the results depend on the processing

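No paired analysis was possible because the H3K27ac columns hold 1 pooled value per group, and leaving out replicates was not run for the same reason. The count of DiffBind calls that fell (21) ranged from 15 to 22 over its alternatives; the count that rose (0) was 2 by a 2-fold limit on the pooled columns, 1 with no distance limit and 1 over gene bodies. Scaling moved the median difference of all regions by 0.77 (median-centred), 0.49 (sum), -0.63 (promoter-centred) and 0.85 (quantile) in formative DKO against formative WT. There, 8 regions of the 36 were 2-fold higher as deposited, against 15, 5 and 22 with median, promoter and quantile scaling, 15 with the width-corrected quantile, and 5 with the 50 kb window or without low-signal regions; 4 were lower as deposited, against 1 with median, sum or quantile scaling, 8 with promoter scaling, and 2 with the width-corrected quantile or the 50 kb window. Tet2 regions 5 and 17 turned from lower to 0.856 and 0.0939 under quantile normalization. In naive DKO against naive WT, 6 were lower as deposited, against 13 (promoter-centred), 11 (1.5-fold) and 2 (width-corrected quantile), and 2 were higher, against 0 (promoter-centred), 1 (50 kb) and 5 (1.5-fold). In formative WT against naive WT, 2 were higher, against 1 (quantile), 0 (low-signal regions left out), and 5 (gene bodies or width-corrected quantile). In formative DKO against naive DKO, 3 were higher, against 5 (1.5-fold or gene bodies) and 0 (low-signal regions left out). For H3K4me1, promoter centring gave 5 lower in formative DKO against naive DKO (3 as deposited), 16 lower in naive DKO against naive WT (3), and 8 lower and 1 higher in formative DKO against formative WT (2 and 4). Median and quantile scaling each gave 4 higher, and the sum 1, in naive DKO against naive WT (0). The cause of these shifts was not tested. In formative WT against naive WT the Tet1 median (-0.86 as deposited) was -0.06 with the width-corrected quantile. The Tet2 median stayed below 0 under each scaling in formative WT against naive WT (-4.46 to -2.72) and in formative DKO against naive DKO (-1.85 to -1.73).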
